A study of Macaca mulatta with 9 samples.

Results

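Lumican (LUM), biglycan (BGN), perlecan (HSPG2) and tenascin-C (TNC) are 4 secreted matrix genes, described here in small antral follicles of rhesus macaque ovaries, which are follicles that have just formed their fluid-filled cavity. Members were taken by exact match of the array annotation's gene symbol, which gave 8 probe sets (3 for LUM, 2 each for BGN and HSPG2, 1 for TNC) among 52766 non-control probe sets and 4 of 14132 genes with 1 symbol. The genes were chosen on signals of these arrays: LUM, BGN and HSPG2 stood out as lower in Western-style diet against control, and TNC as higher in diet plus testosterone against control. Those contrasts are therefore given as values without a test.

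Each sample came from a young adult female in the early follicular phase, collected at or near menses. There were 3 groups of 3 biological replicates: WSD+T, a Western-style diet with chronically raised androgen; WSD, the same diet alone; and control, a standard diet. The design holds no group with testosterone on a standard diet, so an effect of testosterone apart from the diet cannot be read. Follicles judged healthy were pooled by ovary, freed of surrounding stroma with needles and opened, and their granulosa cells, follicle wall and cumulus-oocyte complex were lysed together. In such bulk samples, fewer cells of a type and less RNA per cell cannot be told apart.

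Lumican and biglycan are small leucine-rich proteoglycans, short core proteins that bind fibrillar collagen and carry keratan sulfate chains in the first case and chondroitin or dermatan sulfate chains in the other. Perlecan is a large heparan sulfate proteoglycan of basement membranes, the sheet type that separates granulosa from theca cells and surrounds vessels, and in follicles it also lies in the matrix between granulosa cells. Tenascin-C is no proteoglycan but a six-armed glycoprotein that appears in tissue under remodelling, binds fibronectin and integrins, and can signal through TLR4.

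Signal intensity on a 1-colour Affymetrix array has no fixed zero and depends on the probe set, so levels are compared only between arrays for 1 probe set. All 9 arrays had been scaled to the same trimmed mean, 200.01, and their median signal ranged from 15.9 to 23.8. Fold changes are differences of log2(signal + 16) from 1 limma fit to all 9 arrays over 26383 tested probe sets, with a threshold of 0.05 on the Benjamini-Hochberg adjusted p. A probe set was tested where its mean on this scale reached the median, a signal of about 21.2. Of the member probe sets, 7 passed this filter and the dimmest of LUM did not. The fit called 520 probe sets (1.97%) in WSD+T against control, 3817 (14.5%) in WSD against control and 789 (2.99%) in WSD+T against WSD. Leaving out 1 array moved these counts to between 0 and 1777, 1735 and 6628, and 0 and 1548. The mean within-group variance was 0.0411 in WSD+T, 0.330 in WSD and 0.152 in control, and the shared spread of the fit averages over them. Of the calls, 72.5% were lower in WSD+T against control, 66.9% in WSD against control and 31.7% in WSD+T against WSD. The last 2 shares became 46.8% and 60.0% under median centring, 56.8% and 51.7% under quantile normalization, and 50.3% and 57.0% under cyclic loess. The first share was 44.0% in the fit on the 6 arrays of the 2 groups, 48.3% with array weights per group and 46.7% without WSD replicate 3. Both diet groups are set against the same 3 control arrays, and the contrast of WSD+T with WSD reuses arrays on which the members were chosen. Adjusted p values given below for the members are those of the whole-table fit and are no independent support.

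LUM was near the bottom of the scale in WSD follicles, intermediate in WSD+T follicles and highest in control follicles. Its brightest probe set, called probe set 1 here, read 197, 431 and 191 on WSD+T replicates 1 to 3. The WSD arrays read 22.4, 32.4 and 9.79, and the control arrays 920.3, 749 and 417. Every WSD array was thus below every other array, while WSD+T replicate 2 lay just above control replicate 3, so those 2 groups overlapped. In WSD the mean was 21.5 ± 11.3, against 695 ± 256 in control (SD, n = 3 each), a log2 difference of -4.22 (SE 0.40). Of the 26383 tested probe sets, 1 had a lower fold change in that contrast, but LUM was chosen on it, so nothing is read from this rank. Since 21.5 is about the signal at which the filter begins, the size of this difference depends on the pseudocount: it was -5.02 with a pseudocount of 1 and -3.10 with one of 64.

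LUM's other probe sets were dimmer and kept the order of the group means. Probe set 2 had signals of 13.4, 36.5 and 15.8 in WSD+T, 1.06, 0.793 and 0.183 in WSD, and 117, 65.0 and 71.8 in control, with no overlap between any 2 groups. Its log2 difference in WSD against control was -2.56 (SE 0.26), smaller than that of probe set 1, and -1.18 with a pseudocount of 64. Probe set 3, which did not pass the filter, had 3.27, 17.6 and 4.73 in WSD+T, 2.46, 0.445 and 0.374 in WSD, and 27.0, 16.04 and 12.5 in control. On all 3 probe sets WSD+T replicate 2 was the highest array of its group, by more than 2 times. Control replicate 1 was the highest control array on each, whereas the order of control replicates 2 and 3 differed between probe sets.

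Against control, probe set 2 of LUM passed as lower in WSD+T (log2 difference -1.42, SE 0.26, adjusted p = 0.0359) and probe set 1 did not (-1.33, SE 0.40, adjusted p = 0.129). Set against WSD, probe set 1 passed as higher in WSD+T (2.89, SE 0.40, adjusted p = 0.0205) and probe set 2 did not (1.14, SE 0.26, adjusted p = 0.0546). With pseudocounts of 1 and 64 the difference of probe set 1 from WSD was 3.64 and 1.91, and with 64 that of probe set 2 was 0.40. The background was 1.43% of tested probe sets called lower in WSD+T against control and 2.04% called higher in WSD+T against WSD. Probe set 2 passed the filter narrowly, at a mean log2 value of 5.29 beside the median of 5.22, and only through its control signals. It stayed above the filter in 6 of the 9 fits without 1 array and fell below it without any control array. Nothing is therefore read from its call. That call ended without WSD+T replicate 1 (adjusted p = 0.176), WSD+T replicate 3 (0.174) or WSD replicate 1 (0.0557). It also ended with a replicate block (0.0940), with WSD+T replicates 1 and 3 averaged (0.176) or with no filter on low values (0.0502). Its adjusted p ranged from 0.0170 to 0.176 over the alternatives in which it was tested. The call of probe set 1 ended without WSD+T replicate 1 (0.122), 2 (0.107) or 3 (0.0791) or WSD replicate 1 (0.0626), with a range of 0.0193 to 0.122.

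**Figure D1:**
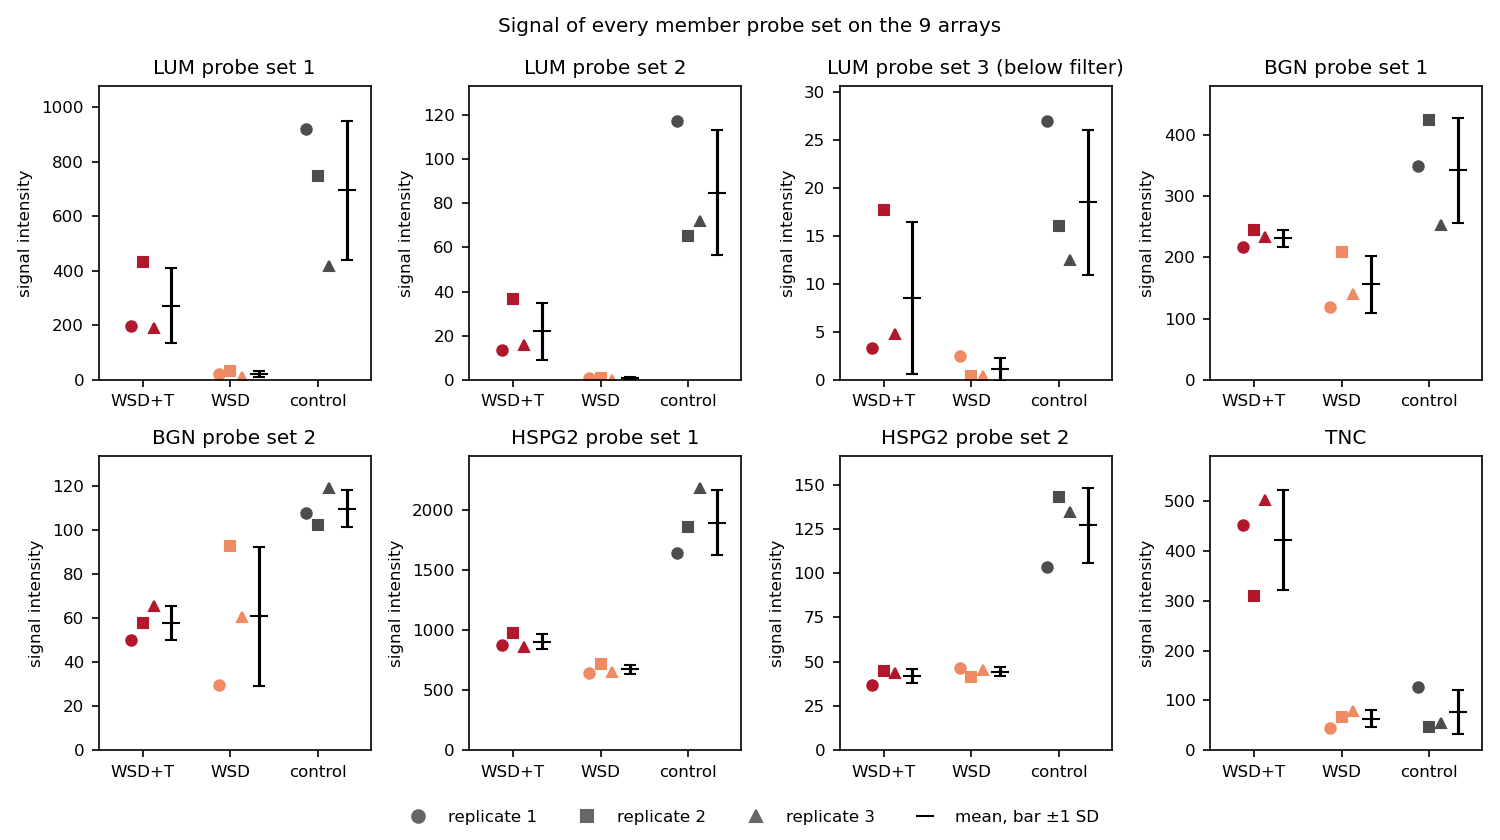
Signal intensity (vertical axes, linear, starting at 0) of all 8 probe sets of LUM, BGN, HSPG2 and TNC on the 9 arrays, with 1 symbol per replicate and the group mean ± 1 SD (n = 3) beside it. LUM is lowest in WSD on each of its 3 probe sets, HSPG2 in both diet groups lies below control without overlap, and TNC is above 300 only in WSD+T.

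BGN differed less between the groups than LUM. Probe set 1 read 216, 244 and 233 in WSD+T, 119, 209 and 140.3 in WSD, and 349, 424 and 252 in control. The 3 groups did not overlap, but the highest WSD+T array (244) and the lowest control array (252) were close. WSD averaged 156 ± 47.0 against 342 ± 86.2 in control (SD, n = 3 each), a log2 difference of -1.06 (SE 0.24). In WSD+T the mean was 231 ± 13.9, which differed from control by -0.51 (SE 0.24, adjusted p = 0.286) and from WSD by 0.56 (SE 0.24, adjusted p = 0.222), neither past the threshold.

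The dimmer BGN probe set 2 read 50.4, 57.9 and 65.5 in WSD+T, 29.7, 92.9 and 60.6 in WSD, and 108, 103 and 119 in control. Here both diet groups lay below control without overlap, and WSD+T fell within the wide range of WSD. Its log2 difference was -0.79 (SE 0.28) for WSD against control, -0.77 (SE 0.28, adjusted p = 0.190) for WSD+T against control and 0.02 (SE 0.28, adjusted p = 0.974) for WSD+T against WSD. The difference of WSD+T from control passed in the fit on the 6 arrays of the 2 groups (adjusted p = 0.0161) and with array weights per group (0.0330). The BGN probe sets therefore disagreed on whether WSD+T stood above WSD. On both, WSD replicate 2 was the highest and WSD replicate 1 the lowest of the WSD arrays.

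HSPG2 was lower in both diet groups than in control, and the diet groups were close to each other. Probe set 1 read 875, 975 and 861 in WSD+T, 646, 721 and 655 in WSD, and 1647, 1858 and 2189 in control. Each group formed a narrow band, with the control arrays far above both others. The means were 904 ± 62.3 in WSD+T, 674 ± 40.6 in WSD and 1898 ± 273 in control (SD, n = 3 each). WSD differed from control by -1.46 (SE 0.15) on the log2 scale, and by -1.23 (SE 0.15) on the dimmer probe set 2.

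Both HSPG2 probe sets passed as lower in WSD+T against control. Probe set 1 differed by -1.05 (SE 0.15, adjusted p = 0.0178). Probe set 2, whose signals were 37.2, 45.0 and 43.8 in WSD+T, 46.6, 41.4 and 45.4 in WSD and 103, 143 and 135 in control, differed by -1.29 (SE 0.15, adjusted p = 0.0142). The probe sets differed on the order of the diet groups. WSD+T lay above WSD without overlap on probe set 1 (0.41, SE 0.15, adjusted p = 0.154) and overlapped WSD on probe set 2 (-0.06, SE 0.15, adjusted p = 0.861). Probe set 1 lost its call without WSD+T replicate 1 (0.124), 2 (0.0508) or 3 (0.118) or without control replicate 2 (0.0546) or 3 (0.0531), and probe set 2 without WSD+T replicate 1 (0.111) or 3 (0.103). Both also lost it with a replicate block (0.0685 and 0.0654) and with WSD+T replicates 1 and 3 averaged (0.116 and 0.0983). Over all alternatives the adjusted p ranged from 0.00412 to 0.124 for probe set 1 and from 0.00288 to 0.111 for probe set 2.

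TNC ran against this order, high in WSD+T and low in both WSD and control. Its single probe set read 451, 309 and 502 in WSD+T, 44.6, 66.4 and 78.7 in WSD, and 127, 46.3 and 55.1 in control. The lowest WSD+T array was more than 2 times as bright as any other array, and control replicate 1 was the highest of the remaining 6. The means were 421 ± 100.1 in WSD+T, 63.2 ± 17.3 in WSD and 76.0 ± 44.1 in control (SD, n = 3 each), and the log2 difference of WSD+T from control was 2.32 (SE 0.33).

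WSD and control overlapped in TNC and did not differ past the threshold (-0.14, SE 0.33, adjusted p = 0.807). This small difference turned positive under cyclic loess (0.0195) and without WSD replicate 1 (0.04) or control replicate 1 (0.23). WSD+T was higher than WSD (2.46, SE 0.33, adjusted p = 0.020), and 15 of the 26383 tested probe sets had a higher fold change in that contrast. It reuses the WSD+T arrays on which TNC was chosen, so nothing is read from this rank. The call ended without WSD+T replicate 1 (adjusted p = 0.125), 2 (0.0991) or 3 (0.0791) or WSD replicate 1 (0.0634), with a range of 0.0120 to 0.125 over all its alternatives, while the log2 difference stayed between 1.92 and 2.72.

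**Figure D2:**
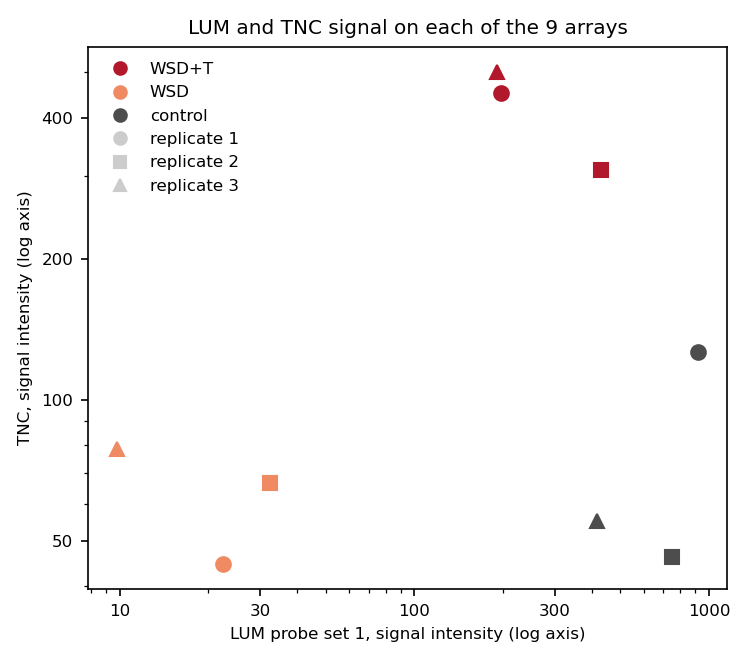
LUM probe set 1 (horizontal log axis) against TNC (vertical log axis), both as signal intensity, with 1 point per array, colour for the group and shape for the replicate. The WSD+T arrays lie at the top with TNC from 309 to 502, the WSD arrays at the left with LUM from 9.79 to 32.4, and the control arrays at the lower right.

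Counted over probe sets, all 6 tested ones of the 3 proteoglycans were below control in WSD without overlap. That contrast chose these genes, and 20.2% of all tested probe sets did the same, so nothing is read from the count. In WSD+T against control, 5 of the 6 were below control without overlap, where the background was 18.0%, and 3 of the 6 were called lower, where it was 1.43%. TNC, chosen on this contrast, was above control without overlap, as were 18.8% of tested probe sets. Against WSD, 4 of the 6 and TNC were higher in WSD+T without overlap, where the background was 17.5%. Both contrasts share arrays with the contrasts that chose the genes, and the 6 probe sets stand for 3 genes. LUM probe set 2, called lower in WSD+T against control, passed the filter only through its control signals. Nothing is read from these counts either. Within WSD+T, replicate 2 had the highest signal of LUM on 3 of 3 probe sets and the lowest of TNC, and replicates 1 and 3 were close to each other. Those 2 arrays also had the highest rank correlation of any pair over the whole table (Spearman 0.965), against 0.958 between WSD+T replicates 2 and 3. They were kept apart because the labels give them as separate biological replicates. A rank correlation cannot show whether they are independent. With the 2 averaged, the fit called 0 probe sets in WSD+T against control and 0 in WSD+T against WSD.

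**Figure D3:**
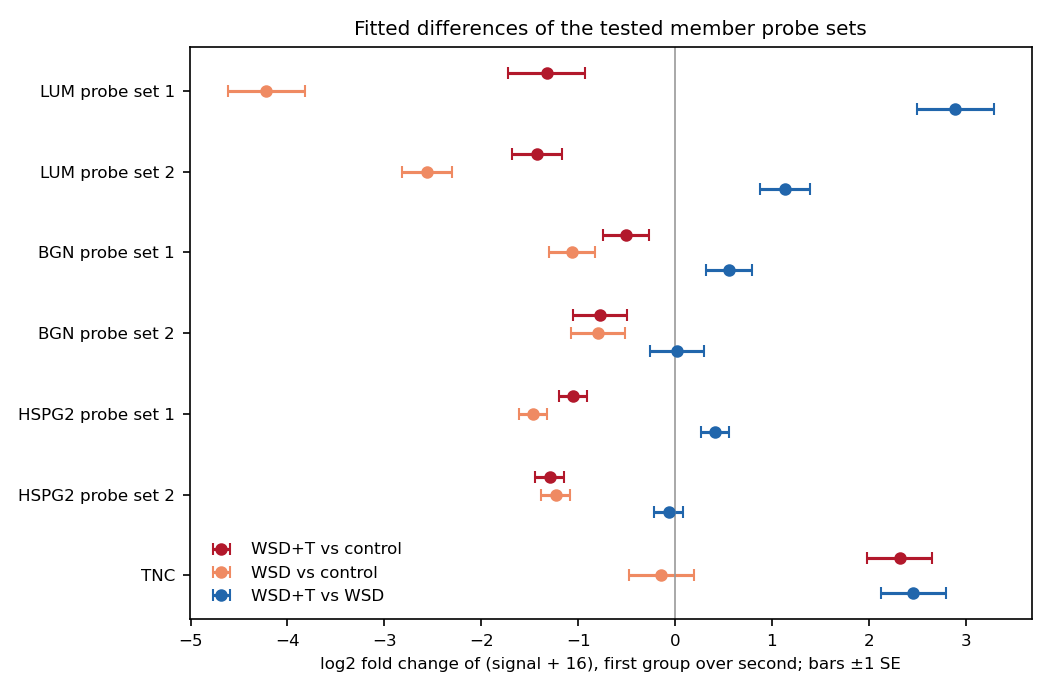
Log2 fold change of signal + 16 (horizontal axis, bars ± 1 SE) for the 7 tested probe sets in the 3 comparisons, from the fit to 9 arrays. The proteoglycan probe sets are below 0 in both diet groups against control, LUM probe set 1 reaches -4.22 in WSD, and TNC is at 2.32 against control and 2.46 against WSD.

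As background, LUM, BGN and TNC are made mainly by fibroblast-like cells, and HSPG2 also by granulosa and endothelial cells, so markers of these cell types are given beside them. The summed signal of 7 stroma and fibroblast markers (of 9 listed) ran from 9632 to 11327 in WSD+T, from 7609 to 10850 in WSD and from 9411 to 10046 in control. None of its 6 tested genes was called by limma in any comparison, and at an unadjusted p under 0.05 there was 1, higher in WSD+T against WSD. On WSD replicates 1 to 3 this sum was 7609, 10850 and 7746, and LUM probe set 1 read 22.4, 32.4 and 9.79. Among theca markers, 6 of 9 were measured, with sums of 5467 to 6002 in WSD+T, 4183 to 6538 in WSD and 5193 to 6340 in control. The androgen-making theca enzyme CYP17A1 was 340.3 ± 46.3 in WSD+T, 203 ± 81.0 in WSD and 657 ± 127 in control, and was called lower in WSD against control (-1.67, SE 0.26, adjusted p = 0.00715). Although the sums overlapped, the median log2 difference of the 6 theca markers was -0.93 in WSD and -0.48 in WSD+T against control, beside -0.08 and -0.01 over all tested genes. Of the 6, 2 were called lower in WSD (33.3% beside 10.7% of all tested genes) and 1 in WSD+T (16.7% beside 1.73%). The second gene called in WSD, and the one called in WSD+T, was the hedgehog receptor PTCH1, named here after its values were seen, at 71.7 ± 32.3 in WSD+T and 48.9 ± 19.1 in WSD against 232 ± 51.2 in control (-1.54, adjusted p = 0.0460, and -1.96, adjusted p = 0.00732).

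The sums of other marker lists differed more between arrays or groups. Granulosa markers (8 of 10) summed to 7835 to 8575 in WSD+T, 5626 to 9917 in WSD and 10453 to 13163 in control. Their median log2 difference was -0.91 in WSD+T and -0.81 in WSD against control, beside -0.01 and -0.08 over all tested genes. Of the 8, 1 was called lower in WSD+T (12.5% beside 1.73% of all tested genes). In WSD 1 was called lower (12.5% beside 10.7%) and 1 higher (12.5% beside 4.74%). Smooth muscle and pericyte markers (4 of 7) summed to 4742 to 4906 in WSD+T, 4240 to 5045 in WSD and 2918 to 3727 in control. Myeloid markers (8 of 10, ITGAM below the filter) summed to 12336 to 13764 in WSD+T, 809 to 19180 in WSD and 1514 to 7849 in control. On WSD replicates 1 to 3 the myeloid sums were 13124, 19180 and 809, and TNC read 44.6, 66.4 and 78.7. Endothelial markers (9 of 9, KDR below the filter) summed to 2319 to 2653 in WSD+T, 677 to 4142 in WSD and 1294 to 1905 in control. Oocyte markers (7 of 10) summed to 1193 to 1393, 1142 to 1547 and 521 to 1045, and surface epithelium markers (7 of 7, only 3 above the filter) to 556 to 823, 856 to 1473 and 415 to 553 in the same order. The 3 tested surface epithelium genes split in WSD against control, with 1 called higher and 1 lower and a median log2 difference of -0.43. That is 33.3% in each direction, beside 4.74% higher and 10.7% lower among all tested genes. The 4 lymphocyte markers measured (of 7) stayed at 87.3 or below in sum. The part of these cell types in the values of LUM, BGN, HSPG2 and TNC was not tested.

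**Figure D4:**
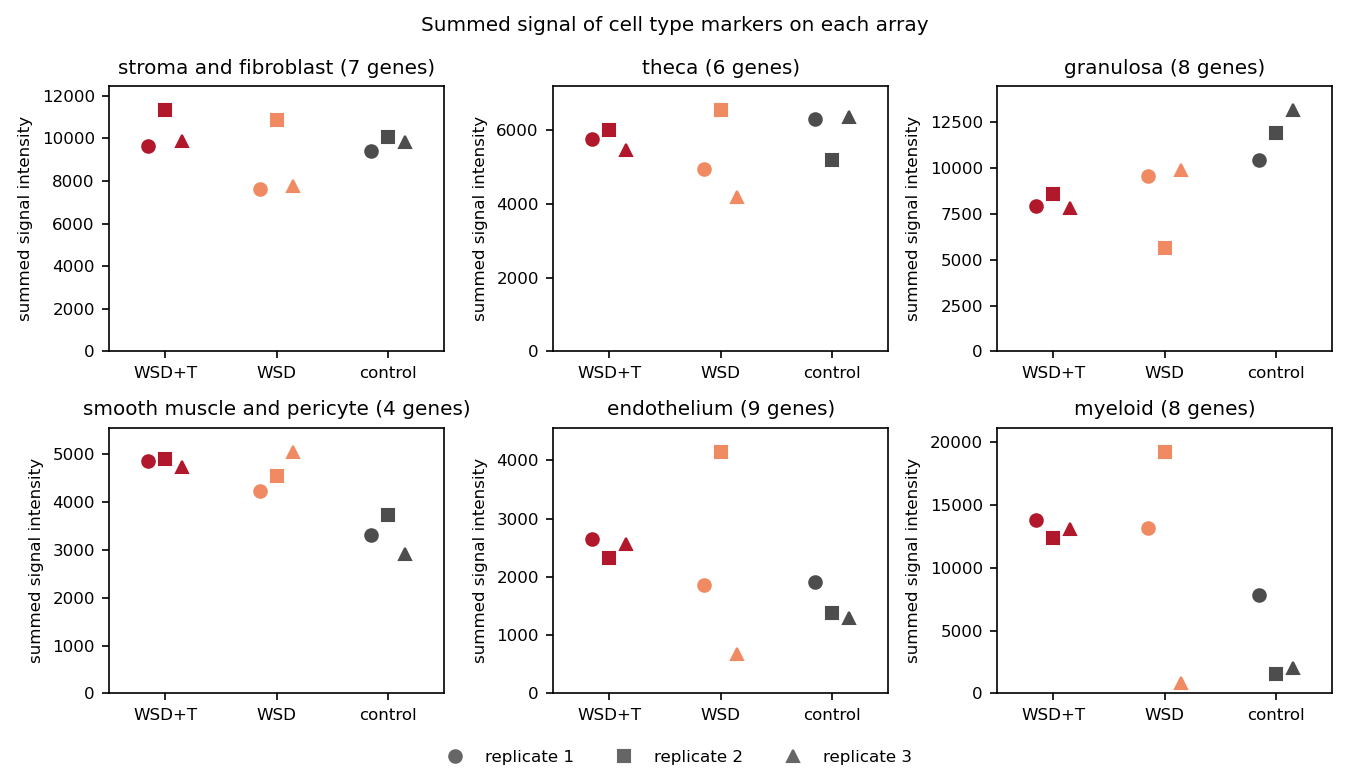
Summed signal intensity (vertical axes, starting at 0) of the markers of 6 cell types on each array, with 1 symbol per replicate. The sums of stroma and theca markers overlap between the groups, granulosa markers are highest in control, smooth muscle markers are lowest in control, and the WSD arrays spread from 809 to 19180 in myeloid markers.

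Among other small leucine-rich proteoglycans the calls were higher in the diet groups. Of 8 tested genes (16 listed), 3 rose in WSD+T against control and none fell, beside 0.62% higher and 1.73% lower among 10002 tested genes. The list median was 1.05, against -0.01 over all tested genes. ECM2, a matrix protein with leucine-rich repeats, was 265 ± 38.8 in WSD+T against 88.8 ± 15.6 in control (log2 difference 1.43, SE 0.22, adjusted p = 0.0219). Asporin (ASPN), which binds collagen and TGF-beta, was 70.5 ± 13.6 against 18.2 ± 5.01 (1.34, SE 0.21, adjusted p = 0.0266). Osteomodulin (OMD), a keratan sulfate proteoglycan, was 247 ± 28.9 against 84.2 ± 19.3 (1.41, SE 0.29, adjusted p = 0.0481). In WSD against control ECM2 (0.98) and ASPN (0.88) rose and none fell, beside 4.74% higher and 10.7% lower among all tested genes. Leaving out 1 array gave 0 to 4 and 0 to 3 genes, and the first was 0 without any 1 of the 3 WSD+T arrays or without control replicate 2 or 3, the other 0 without control replicate 2 or 3.

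In the RefSeq gene order of rhesus macaque, LUM lies between keratocan (KERA) and decorin (DCN), with epiphycan (EPYC) next to KERA, all of the same family. DCN, the collagen-binding proteoglycan closest to biglycan, was bright in every group, at 3114 ± 414 in WSD+T, 1825 ± 469 in WSD and 2475 ± 229 in control. Its differences did not pass, at 0.33 (SE 0.21, adjusted p = 0.438) for WSD+T against control, -0.47 (SE 0.21, adjusted p = 0.170) for WSD against control and 0.79 (SE 0.21, adjusted p = 0.0781) for WSD+T against WSD. EPYC was even in WSD+T at 241 ± 11.3 and uneven in WSD at 80.9 ± 129 and in control at 83.1 ± 68.3, and passed in no comparison. Among the other measured family members, OGN was 728 ± 105 in WSD+T and 721 ± 308 in WSD against 421 ± 19.6 in control and did not pass.

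The collagens that lumican and biglycan bind showed no called gene. Of 18 tested fibrillar collagen and cross-linking genes, limma called none in any of the 3 comparisons, with 2 at an unadjusted p under 0.05 in WSD+T against control, both higher, and 0 in each of the others. COL1A1 was 2133 in WSD+T, 2216 in WSD and 2343 in control on average. The probe set of COL3A1 stayed below the filter.

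Among 24 tested partners of perlecan and other heparan sulfate proteoglycans (32 listed), 2 rose and 2 fell in WSD against control. That is 8.33% in each direction, beside 4.74% higher and 10.7% lower among all tested genes. The 2 that fell became 0 without control replicate 2 and 7 without WSD replicate 3. The cell-surface proteoglycans glypican-1 (GPC1, 1.33, SE 0.21, adjusted p = 0.00711) and syndecan-1 (SDC1, 0.80, SE 0.20, adjusted p = 0.0343) rose. The laminin chains LAMA1 (-1.71, SE 0.33, adjusted p = 0.0141) and LAMA3 (-0.93, SE 0.19, adjusted p = 0.0162) fell. GPC1 also rose in WSD+T against control, at 351 ± 49.2 against 110.2 ± 31.9 (1.56, SE 0.21, adjusted p = 0.0161), and LAMA1 was 169 ± 4.65 in WSD+T against 531 ± 50.3 (-1.56, SE 0.33, adjusted p = 0.0540). The heparan sulfate proteoglycan agrin (AGRN) was 223 in WSD+T, 164 in WSD and 162 in control and did not pass. The call of GPC1 in WSD+T ended without WSD+T replicate 1 or 3 or control replicate 3, with an adjusted p of at most 0.115. In WSD against control GPC1 passed in all 9 fits that left out 1 array, LAMA1 and LAMA3 in all but the one without control replicate 2 (0.0514 and 0.0574), SDC1 in 3 of 9.

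The large chondroitin sulfate proteoglycans and link proteins had 13 tested genes, of which 1 fell in WSD+T and 2 in WSD against control and none rose. These are 7.69% beside 1.73% of all tested genes lower in WSD+T, and 15.4% beside 10.7% in WSD. ESM1, a secreted dermatan sulfate proteoglycan of endothelial cells, was the one lower in both, at 107 ± 14.8 in WSD+T and 137 ± 12.8 in WSD against 482 ± 82.2 in control (log2 difference -2.01, adjusted p = 0.00884, and -1.69, adjusted p = 0.00296). The call in WSD+T ended without WSD+T replicate 1 or 3, with an adjusted p of at most 0.101. CSPG5 fell in WSD (-1.46, SE 0.30, adjusted p = 0.0162). Versican (VCAN), the main hyaluronan-binding proteoglycan of follicular fluid and cumulus matrix, was 3200 in WSD+T, 3120 in WSD and 3855 in control and did not pass (adjusted p = 0.376 and 0.196 against control).

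The list of other tenascins and matricellular proteins had 1 call in all. Of 14 tested tenascins and matricellular proteins, limma called none in WSD+T against control, with 3 higher at an unadjusted p under 0.05, and 1 in WSD against control, the matricellular growth regulator CCN3 (1.93, SE 0.40, adjusted p = 0.0175). That is 7.14% beside 4.74% of all tested genes higher. It called none in WSD+T against WSD, with 1 higher at an unadjusted p under 0.05. Tenascin-X (TNXB), the only tenascin of the list above the filter, was dim, with means of 47.6, 42.2 and 34.2 in WSD+T, WSD and control. The ligand fibronectin (FN1) was 2671 in WSD+T, 2576 in WSD and 2026 in control and did not pass.

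Of 11 tested receptors of tenascin-C and biglycan, limma called none in WSD+T against control, with 2 higher and 1 lower at an unadjusted p under 0.05. None was called in WSD+T against WSD, with 1 lower at an unadjusted p under 0.05. In WSD against control the integrin subunit ITGB3 (1.06, SE 0.30, adjusted p = 0.0481) and annexin A2 (ANXA2, 0.86, SE 0.24, adjusted p = 0.0446) rose and the epidermal growth factor receptor EGFR fell (-1.51, SE 0.21, adjusted p = 0.00544). These calls are 18.2% of the list higher and 9.09% lower, beside 4.74% and 10.7% of all tested genes. ITGB3 and ANXA2 each passed in only 1 of 9 fits without 1 array, EGFR in all 9. TLR4, an innate immune receptor that also marks myeloid cells, was 289 in WSD+T, 491 in WSD and 44.1 in control, with a standard error of 1.22 on the log2 scale, and did not pass. The integrin subunit ITGAV was 957 in WSD+T, 1199.6 in WSD and 1028 in control.

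The enzymes that assemble glycosaminoglycan chains on core proteins included several with lower signal in WSD. Of 33 tested genes (52 listed), 8 fell and none rose in WSD against control, which is 24.2% lower beside 10.7% of all tested genes, and the list median was -0.37 against -0.08. They included PAPSS1, which makes the sulfate donor (803 ± 54.3 in WSD against 1569 ± 236 in control, log2 difference -0.94, SE 0.15, adjusted p = 0.00806). The heparan sulfate sulfotransferase HS3ST1 (-1.55, SE 0.29, adjusted p = 0.0125) and the chondroitin polymerase CHSY3 (-1.16, SE 0.22, adjusted p = 0.0136) also fell. In WSD+T against control PAPSS1 (-0.84, SE 0.15, adjusted p = 0.0360) and the sulfotransferase HS2ST1 (-0.70, SE 0.13, adjusted p = 0.0401) fell. These are 6.06% of the list, beside 1.73% of all tested genes lower. Against WSD, the chain-starting xylosyltransferase XYLT2 (1.21, SE 0.25, adjusted p = 0.0452) and the dermatan epimerase-like DSEL (0.97, SE 0.21, adjusted p = 0.0481) were higher in WSD+T. That is also 6.06% of the list, beside 2.06% of all tested genes higher and 0.79% lower. DSEL was 1113 ± 92.6 in WSD+T, 575 ± 154 in WSD and 1113 ± 100.4 in control. The count of 8 was 4 without control replicate 2 or 3, 12 without WSD replicate 3, 3 under median centring and 1 in the fit on the 6 arrays of the 2 groups. XYLT2 and DSEL each passed in 2 of 9 fits without 1 array, XYLT2 without control replicate 2 or 3 and DSEL without WSD replicate 2 or 3, and PAPSS1 and HS2ST1 in WSD+T against control also in 2 of 9. In WSD, PAPSS1 and HS3ST1 passed in all 9 and CHSY3 in all but the one without control replicate 2 (0.0509).

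Enzymes that cut proteoglycans had 19 tested genes, of which 1 rose and 2 fell in WSD against control. These are 5.26% higher and 10.5% lower, near the 4.74% and 10.7% of all tested genes. The 1 that rose became 5 without WSD replicate 3, and the 2 that fell became 0 without WSD+T replicate 1 or 3, WSD replicate 1 or control replicate 2 or 3. The collagen- and proteoglycan-degrading cathepsin CTSK rose (1.43, SE 0.19, adjusted p = 0.00434), and the heparan sulfate endosulfatase SULF2 (-0.71, SE 0.17, adjusted p = 0.0293) and the hyaluronidase HYAL2 (-0.78, SE 0.19, adjusted p = 0.0296) fell. The aggrecanases differed in direction in WSD+T against WSD: ADAMTS5 was higher, at 848 ± 42.0 against 238 ± 170 (1.98, SE 0.41, adjusted p = 0.0450), and ADAMTS4 lower, at 535 ± 144 against 1677 ± 474 (-1.62, SE 0.34, adjusted p = 0.0463). That is 5.26% of the list in each direction, beside 2.06% higher and 0.79% lower among all tested genes. ADAMTS5 and ADAMTS4 each passed in 2 of 9 fits without 1 array, SULF2 in 3 and HYAL2 in 2, while CTSK passed in all 9. Limma called none in WSD+T against control, with 4 higher at an unadjusted p under 0.05.

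**Figure D5:**
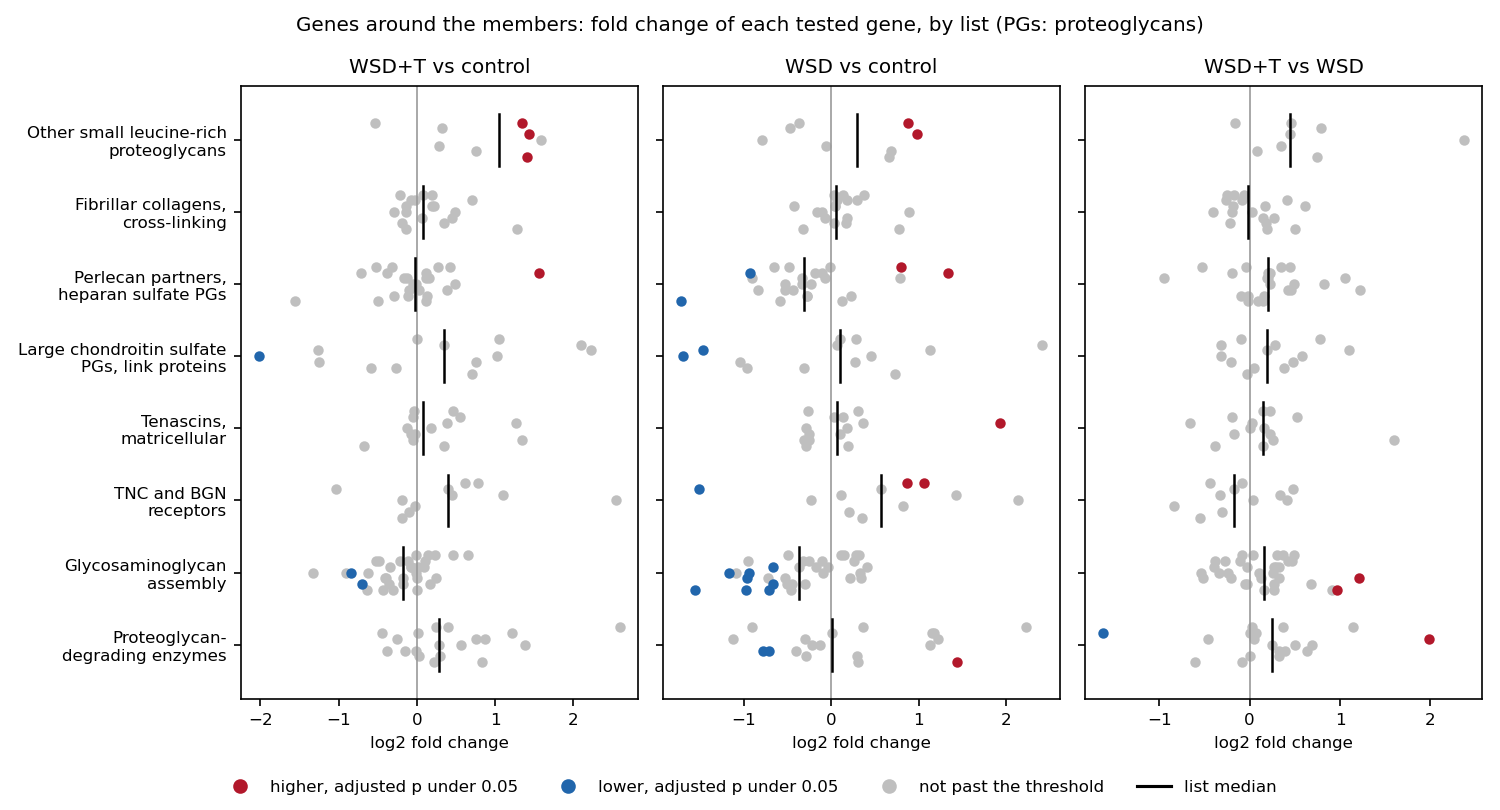
Log2 fold change (horizontal axes) of each tested gene of 8 matrix gene lists in the 3 comparisons, with called genes coloured and the list median as a black bar. Calls lie above 0 among other small leucine-rich proteoglycans, below 0 among glycosaminoglycan assembly genes in WSD (8 of 33), and are missing from the collagen list.

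Likeness to each member was measured as Pearson's r of log2(signal + 16) over the 9 arrays, among 10001 other tested genes. For LUM probe set 1 the 5 genes most alike were the purine synthesis enzyme GART (r = 0.981), LOC710765 (0.980), HEATR6 (0.979), the autophagy protein ATG2B (0.978) and the ubiquitin ligase scaffold CUL7 (0.975). GART read 351, 411 and 387 in WSD+T, 221, 218 and 183 in WSD, and 493, 591 and 425 in control, the same order of groups as LUM over a much narrower range. BGN probe set 1 was most like the Golgi complex subunit COG6 (0.973), the kinetochore protein ZW10 (0.973), the histone chaperone ASF1B (0.971), GEMIN2 (0.965) and WDR62 (0.956). For HSPG2 probe set 1 they were the lipoxygenase ALOX12 (0.981), ERAL1 (0.979), DIS3L (0.978), the ephrin EFNB1 (0.976) and the ephrin receptor EPHB3 (0.976). EFNB1 read 230, 310 and 223 in WSD+T, 214, 159 and 208 in WSD, and 618, 745 and 989 in control.

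TNC was most like the cytokine oncostatin M (OSM, 0.966), the transcription factor FOXO4 (0.946), the cytokine signalling inhibitor CISH (0.945), the lipocalin APOD (0.940) and the tryptophan-degrading enzyme TDO2 (0.936). OSM read 147, 88.2 and 127 in WSD+T, 5.42, 1.69 and 2.20 in WSD, and 8.18, 0.879 and 4.19 in control, with WSD+T replicate 2 the lowest of its group, as for TNC. TDO2 read 278, 171 and 173 in WSD+T, 20.4, 41.8 and 7.34 in WSD, and 70.1, 13.7 and 18.0 in control. These values share 9 arrays in 3 groups with the members, and a gene that separates the groups in the same way gets a high r. None of the 4 proteoglycan and tenascin members was among the genes most like another: between first probe sets r was 0.899 for LUM with BGN, 0.849 for LUM with HSPG2 and 0.811 for BGN with HSPG2, and between -0.22 and 0.23 for TNC with the other 3.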

How the data were processed

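Expression was measured on 1-colour Affymetrix arrays, 1 for each of 9 samples, after NuGEN 3' IVT amplification, per the labels. Per the submitters' processing notes MAS5 (version not stated) was used; the deposited values are 1 linear intensity for each probe set, and detection calls were not used here. The mean without the outer 2% was 200.01 on each array. The genome build is not given in the sources used here. Symbols came from the array annotation: 24969 of 52865 probe sets (99 of them controls, left out) had 1 symbol, and 24629 matched a RefSeq table of assembly T2T-MMU8v2.0 by Entrez ID with the same symbol. Probe sequences were not used here.

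Group means of log2(signal + 16) on all 9 arrays were fitted in R 4.3.3 by lmFit and eBayes of limma 3.58.1 (residual degrees of freedom 6, prior 2.69) for the 26383 probe sets whose mean reached the median (5.22). P values were two-sided and adjusted by Benjamini-Hochberg per comparison. Each gene is represented by the brightest of its tested probe sets. Members and lists were chosen with earlier results of these data known. The genes named are all member probe sets, up to 3 called genes per list, comparison and direction by smallest p, 18 set genes, and the 5 genes most like each member; EPYC and KERA were added as neighbours of LUM. The fit was also run on simulated arrays with independent noise of the same spread in all groups. The real groups differ in spread, so nothing about the calls is read from that run. Replicate numbers were checked as pairs by the correlation of residuals, which ran from -0.30 to 0.19 for same-numbered samples. Different-numbered samples were not set beside them, so this cannot exclude a pairing. The main fit treated the samples as unpaired. Where a called gene named from the matrix gene lists had further tested probe sets, these moved in the same direction. Called genes that are not named were not checked in this way. Alternatives covered the pseudocount, filter, scaling, arrays fitted, array weights, a replicate block and leaving out each array. Figures were drawn with matplotlib 3.10.9. The number of arrays limits the precision.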

Additional observations from a re-analysis of the deposited data

How the results depend on the processing

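Every log2 difference of LUM and HSPG2 between groups kept its direction under every alternative fitted, whereas BGN probe set 2 in WSD+T against WSD, near 0 at 0.02, became -0.0068 with a pseudocount of 64, -0.11 under median centring, -0.14 under quantile normalization, -0.16 under cyclic loess, -0.05 without WSD+T replicate 3 and -0.31 without WSD replicate 1, reaching 0.32 without WSD replicate 2. TNC in WSD against control was 0.0195 under cyclic loess and ran from -0.37 to 0.23 leaving out 1 array. LUM probe set 1 in WSD against control was -5.02 and -3.10 with pseudocounts of 1 and 64, and in WSD+T against WSD 3.64 and 1.91.

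In WSD+T against WSD, LUM probe set 1 (2.89) and TNC (2.46) did not pass on the 6 arrays of those groups alone (adjusted p = 0.0518 each) or with a replicate block (0.0630 and 0.0672). With WSD+T replicates 1 and 3 averaged they were 3.08 and 2.36 (0.102 and 0.103), and with array weights per group LUM had 0.0520. HSPG2 probe set 1 in WSD+T against control (-1.05) did not pass with a replicate block (0.0685) or, at -1.02, with those replicates averaged (0.116). HSPG2 probe set 2 and LUM probe set 2 in that comparison also lost their calls with the block (0.0654 and 0.0940) and with the average (0.0983 and 0.176), and BGN probe set 2 passed on 6 arrays (0.0161) and with array weights (0.0330). Leaving out 1 array, LUM in WSD+T against WSD ran from 2.53 to 3.10, TNC from 2.28 to 2.66 and HSPG2 in WSD+T against control from -1.15 to -0.94.

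The called probe sets were 3265 in WSD+T against control, 859 in WSD against control and 9 in WSD+T against WSD on 6 arrays, 3267, 1367 and 186 with array weights, 3, 2220 and 1 with the replicate block, and 0, 2536 and 0 with WSD+T replicates 1 and 3 averaged. Median centring gave 300 in WSD+T against WSD, and the filter at the 75th percentile, with fewer probe sets, 2398 in WSD against control. Leaving out 1 array gave 0 to 1777, 1735 to 6628 and 0 to 1548. Median centring shifted the median of all tested probe sets by 0.13 in WSD against control and by -0.14 in WSD+T against WSD. The cause of these changes was not tested. LUM in WSD lies at the signal where the filter begins, which limits how well its fold is known.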
